A study of Canis lupus familiaris with 9 samples.

Results

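The citric acid cycle oxidises acetyl-CoA to carbon dioxide in the mitochondrial matrix and passes the electrons to the respiratory chain. The branched-chain amino acids leucine, isoleucine and valine are broken down largely outside the liver, and skeletal muscle is a main site of their first step, transamination. Their carbon skeletons are then decarboxylated by a mitochondrial complex and enter the cycle as acetyl-CoA or succinyl-CoA, so that the branched-chain pathway feeds the cycle. Here 36 genes of these pathways were described in dog muscle: 14 of the cycle, 19 of branched-chain catabolism, and 3 that exchange carbon or nitrogen with the cycle (PC, GOT1 and GOT2). The members were taken by gene symbol, and each was read from 1 probe set, the brightest on average among those that carry its symbol alone. Of the 36, 35 had such a probe set and 34 passed the filter on low values, out of 15115 genes with a probe set and 7534 tested.

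Muscle came from intact female beagles aged 4 years, sampled after an overnight fast at 24 weeks of a feeding trial. Of these, 5 dogs (animals 2, 5, 6, 7 and 8) ate ad libitum, without restriction. The control group was 4 dogs (animals 1, 3, 4 and 9) fed to hold their starting body weight. Both groups ate the same commercial diet, and each dog was measured on 1 Affymetrix canine array, so that the number of arrays limits the precision. Values are GCRMA values, read here as log2, where a difference of 1 is a doubling, and a value of 4 was the filter. Between arrays, r ran from 0.976 to 0.994 over all probe sets, and the median standard error of a difference was 0.20.

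The tissue label was checked against 15 muscle fibre markers, of which 14 had a probe set and passed the filter. Their mean per dog was 14.80 to 15.25 in ad libitum dogs and 15.03 to 15.25 in control dogs. Markers of other cell types and fibre types were read the same way. None passed the test, and the list means of the groups overlapped in each list. Of single markers, adipocyte LEP was higher in every ad libitum dog than in any control dog (log2 difference 2.41). Endothelial FLT1 was lower in every one (-0.67). Over all tested genes, 0.770% lay wholly above and 0.690% wholly below. The adipocyte list, with 14 of 16 markers tested, had 13 higher in ad libitum muscle, with list means of 8.05 to 9.91 in ad libitum and 7.35 to 9.01 in control dogs. The fibroblast list had 10 of 11 markers tested, all 10 higher, with list means of 8.09 to 11.98 against 7.83 to 9.24. The macrophage list had 8 of 13 markers tested and all 8 were higher, with list means of 5.00 to 8.01 in ad libitum dogs against 4.90 to 5.66 in control dogs, while CD68, CSF1R, AIF1, TYROBP and FCER1G did not pass the filter. All 12 tested fast fibre markers had lower means in ad libitum dogs, with list means of 13.14 to 14.47 against 14.07 to 14.54, and all 9 slow fibre markers had higher means, with 13.88 to 14.38 against 13.84 to 14.24. The endothelial list had 10 of 10 markers tested and 6 higher, with a list mean difference of -0.04, and the blood list had 4 of 8 tested and 0 higher, with -0.14. The part of these markers in the members' differences was not tested, beyond the adipocyte and slow fibre covariates. In whole muscle, fewer cells of a type and less RNA per cell cannot be told apart.

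No member passed the test in either pathway. With limma and Benjamini-Hochberg adjustment over 18394 probe sets, the members' adjusted p ran from 0.796 to 0.989, and over all probe sets 0 passed (0%), where the lowest adjusted p was 0.230. Most members nevertheless had slightly lower means in ad libitum muscle: 12 of the 13 tested cycle genes and 14 of the 18 tested branched-chain genes, where 50.4% of all tested genes had a lower mean. Among tested genes with a mean above log2 10, that share was 49.5%. The median log2 difference, ad libitum minus control, was -0.11 for the cycle genes and -0.11 for the branched-chain genes, beside -0.0021 over all 7534 genes. At an unadjusted limma p under 0.05, 1 member was lower and 0 were higher, against 2.12% of all genes lower and 4.10% higher. In 0 of the 34 members did the 5 ad libitum dogs all lie below or all above the 4 control dogs, beside 0.690% of all genes below and 0.770% above.

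**Figure D1:**
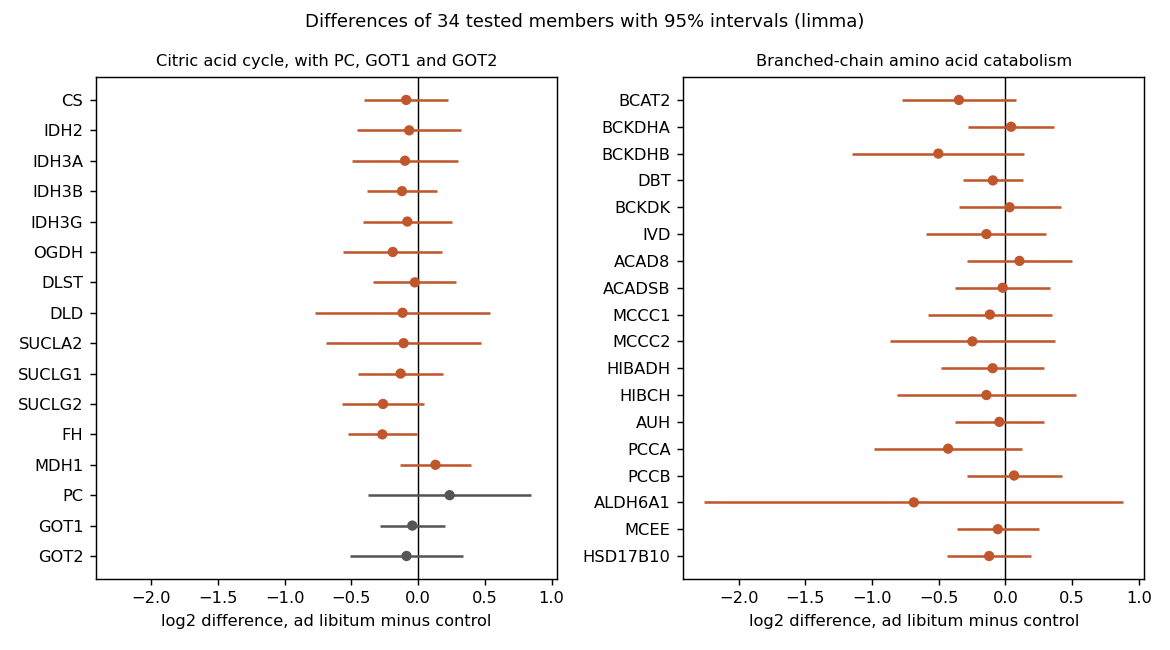
Log2 difference (ad libitum minus control, horizontal axis) of the 34 tested members with 95% intervals from limma, in 2 panels, with PC, GOT1 and GOT2 in grey. The intervals of 33 members include 0, and that of FH runs from -0.53 to -0.01.

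In the citric acid cycle, the member with the smallest p was FH, fumarase, which hydrates fumarate to malate. FH stood at 11.62, 11.50, 11.72, 11.81 and 11.78 in ad libitum dogs 2, 5, 6, 7 and 8, against 12.05, 11.75, 12.06 and 11.96 in control dogs 1, 3, 4 and 9. All 5 ad libitum dogs lay below the control mean, and only control dog 3 fell among them. FH averaged 11.69 ± 0.13 in the ad libitum group (SD, n = 5) and 11.96 ± 0.15 in the control group (SD, n = 4). Its log2 difference was -0.27 (SE 0.12, adjusted p = 0.796, limma). A two-sided exact permutation test, whose smallest possible p is 0.00794, gave p = 0.0397 for FH, unadjusted. The same test was run on each of the 34 tested members, where the next smallest p was 0.0714, for SUCLG2. It reads the same 9 dogs as limma, and FH was named for its small limma p, so it adds no separate support. Leaving out 1 dog at a time moved the FH difference between -0.34 and -0.22, and the other FH probe sets differed by -0.39 and -0.13.

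Succinyl-CoA ligase makes ATP or GTP from succinyl-CoA. In the cycle it is separated from FH by succinate dehydrogenase, whose subunits differed by -0.05 to -0.03. SUCLG2, the subunit of the GTP-forming enzyme, had 10.80, 10.95, 11.12, 11.32 and 10.89 in ad libitum dogs 2, 5, 6, 7 and 8, against 11.39, 11.20, 11.42 and 11.11 in control dogs 1, 3, 4 and 9. Ad libitum dogs 6 and 7 reached into the control range and the other three lay below it. Its log2 difference was -0.26 (SE 0.14, adjusted p = 0.796, limma), and -0.32 by its second probe set. SUCLG1, the subunit shared by both forms, differed by -0.13 (SE 0.14). SUCLA2, of the ATP-forming enzyme, differed by -0.11 (SE 0.26), but without ad libitum dog 2, which held it at 11.62 against 12.17 to 12.74 in the other 4 ad libitum dogs and 11.86 to 12.68 in control dogs, its difference was 0.07.

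At the entry and oxidation steps of the cycle, CS, citrate synthase, which joins acetyl-CoA to oxaloacetate, had 13.31, 13.05, 12.62, 13.04 and 12.97 in ad libitum dogs 2, 5, 6, 7 and 8, against 13.02, 13.16, 13.05 and 13.12 in control dogs 1, 3, 4 and 9. The ad libitum values enclosed all 4 control values, with dog 2 above and dogs 6 and 8 below them. CS differed by -0.09 (SE 0.14), with a 95% interval of -0.40 to 0.22. IDH2, the NADP-dependent mitochondrial isocitrate dehydrogenase, had 14.36, 13.84, 14.08, 13.83 and 14.53 in ad libitum dogs 2, 5, 6, 7 and 8, against 14.33, 14.22, 14.28 and 13.95 in control dogs 1, 3, 4 and 9. Its groups overlapped over nearly their whole range, with a difference of -0.07 (SE 0.17). The 3 subunits of the NAD-dependent isocitrate dehydrogenase, IDH3A, IDH3B and IDH3G, differed by -0.10 (SE 0.18), -0.12 (SE 0.12) and -0.08 (SE 0.15).

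The oxoglutarate dehydrogenase complex turns alpha-ketoglutarate into succinyl-CoA and is built from OGDH, DLST and DLD. OGDH, its decarboxylase, had 8.87, 8.52, 8.79, 9.09 and 9.07 in ad libitum dogs 2, 5, 6, 7 and 8, against 8.69, 9.20, 9.07 and 9.27 in control dogs 1, 3, 4 and 9. Control dog 1 stood among the low ad libitum dogs, and the log2 difference was -0.19 (SE 0.16, adjusted p = 0.862, limma), and -0.10 without ad libitum dog 5. DLST, the succinyltransferase core, differed by -0.02 (SE 0.14). DLD, the lipoamide dehydrogenase that this complex shares with the pyruvate and branched-chain complexes, differed by -0.12 (SE 0.29), the widest error among the cycle members. DLD had 11.79 in ad libitum dog 2, against 12.47 to 13.26 in the other 4 ad libitum dogs and 12.29 to 13.12 in control dogs, and without dog 2 its difference was 0.09.

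Of the malate dehydrogenases, MDH1, the cytosolic enzyme of the malate-aspartate shuttle, was the 1 cycle member with a higher mean in ad libitum muscle. Its log2 difference was 0.13 (SE 0.12, adjusted p = 0.870, limma), and 0.14 by its second probe set, and all 5 ad libitum dogs exceeded the control mean, although control dog 4 was highest of the 9. Without control dog 3 the difference was 0.05. MDH2, the mitochondrial enzyme, is covered by 2 probe sets that both carry a second gene symbol, so it was not analysed here. GOT1, the cytosolic aspartate aminotransferase of the same shuttle, had 14.41, 14.36, 14.35, 14.51 and 14.23 in ad libitum dogs 2, 5, 6, 7 and 8, against 14.40, 14.23, 14.54 and 14.49 in control dogs 1, 3, 4 and 9. The groups covered nearly one range, with a log2 difference of -0.04 (SE 0.11). GOT2, its mitochondrial counterpart, differed by -0.09 (SE 0.19), and by 0.06 in its second probe set. PC, pyruvate carboxylase, refills the cycle with oxaloacetate and is also abundant in adipocytes. PC had 6.24, 6.11, 5.86, 5.53 and 5.34 in ad libitum dogs 2, 5, 6, 7 and 8, against 6.04, 5.38, 4.93 and 5.96 in control dogs 1, 3, 4 and 9. The groups overlapped, with a difference of 0.24 (SE 0.27), of 0.02 without control dog 4, and of -0.29 with the adipocyte marker mean as a covariate.

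**Figure D2:**
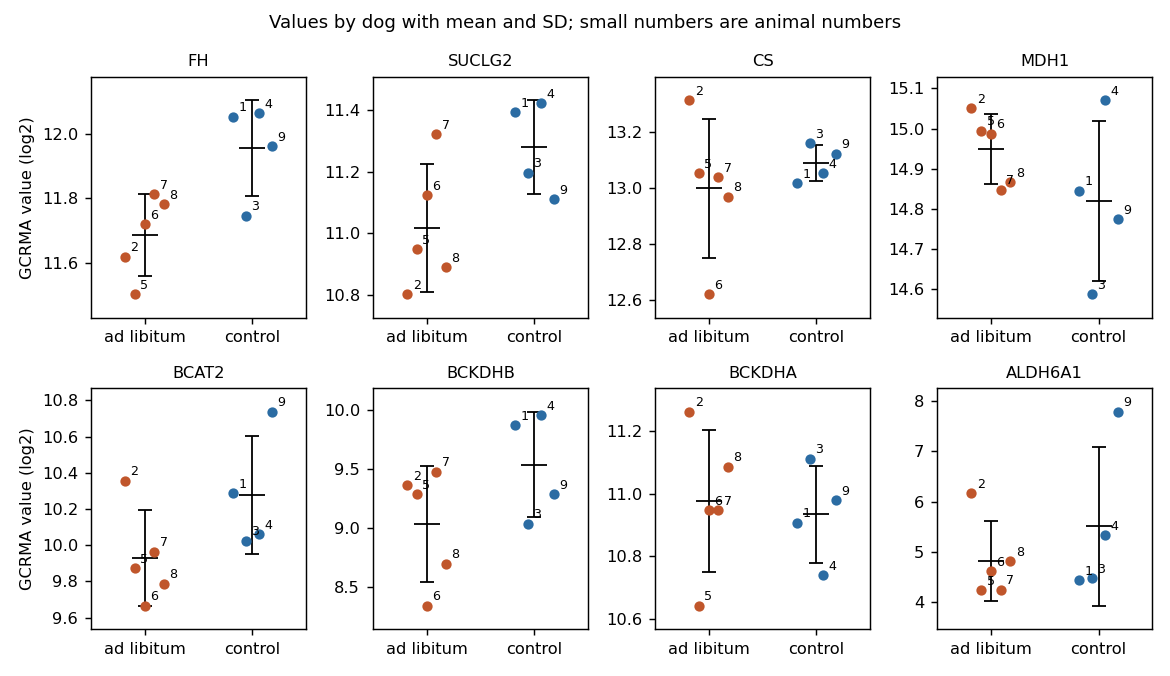
GCRMA value on the log2 scale (vertical axis, a separate range in each panel) of 8 members by dog, ad libitum left and control right, with the mean and SD as bars and animal numbers beside the points. FH has control dog 3 at 11.75 among the ad libitum dogs, and ALDH6A1 has control dog 9 at 7.79 above all others.

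The cycle's small shift was not spread evenly over the dogs. The lowest of the 9 values belonged to an ad libitum dog in 12 of 13 cycle genes, but the highest also did in 7. Because 5 of the 9 dogs were ad libitum, that group holds an extreme more often by its size. The share over all genes was not counted. Ad libitum dog 5 had a median deviation of -0.25 from the control mean and lay below it in 12 of 13 genes, whereas ad libitum dog 7 had 0.04 and lay below it in 4. Between them, ad libitum dogs 2, 6 and 8 had -0.14, -0.13 and -0.12 and lay below it in 8, 10 and 9 genes. Among control dogs the median deviation ran from -0.18 in dog 3 to 0.10 in dog 4. That range is of single dogs and does not measure the spread of a difference between group means, such as the cycle median of -0.11. With 1 dog left out at a time, 10 to 12 cycle genes had lower means and the median was -0.18, without ad libitum dog 7, to -0.08, without ad libitum dog 5. With the adipocyte marker mean as a covariate, 7 of 13 cycle genes were lower, where 44.3% of all genes were. Their median was -0.0011, beside 0.03 over all genes. With the slow fibre marker mean, 12 of 13 were lower and the median was -0.07. The adipocyte marker mean itself differs between the groups, so its fit cannot tell it apart from feeding.

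**Figure D3:**
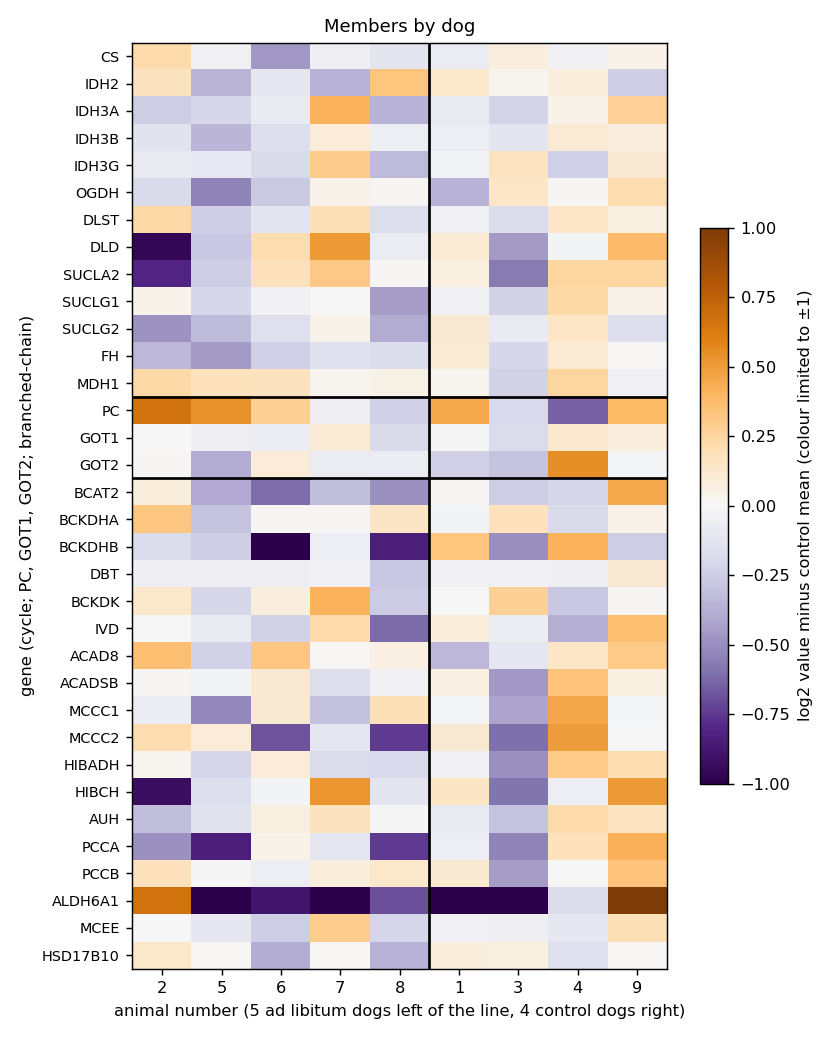
Log2 value minus the control mean (colour, limited to 1 in either direction) of the 34 tested members in each dog, with the 5 ad libitum dogs left of the vertical line and the 4 control dogs right of it. Ad libitum dog 2 is low in DLD, SUCLA2 and HIBCH, and control dog 3 is low in many branched-chain genes.

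In branched-chain catabolism, the first step is the transamination of leucine, isoleucine and valine by BCAT2, the mitochondrial aminotransferase. BCAT2 had 10.36, 9.87, 9.67, 9.96 and 9.79 in ad libitum dogs 2, 5, 6, 7 and 8, against 10.29, 10.03, 10.06 and 10.74 in control dogs 1, 3, 4 and 9. Ad libitum dogs 5, 6, 7 and 8 lay below every control dog, and dog 2 lay above 3 of the 4 controls. The log2 difference was -0.35 (SE 0.19, adjusted p = 0.796, limma), and the other 3 tested BCAT2 probe sets differed by -0.32, -0.51 and -0.22. It was -0.20 without control dog 9 and -0.52 with the adipocyte marker mean as a covariate.

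The second step, oxidative decarboxylation of the keto acids, is carried out by the branched-chain ketoacid dehydrogenase, whose decarboxylase has an alpha subunit, BCKDHA, and a beta subunit, BCKDHB. BCKDHB had 9.36, 9.28, 8.34, 9.48 and 8.70 in ad libitum dogs 2, 5, 6, 7 and 8, against 9.87, 9.04, 9.96 and 9.28 in control dogs 1, 3, 4 and 9. All 5 ad libitum dogs were below the control mean, with dogs 6 and 8 lowest, while control dogs 3 and 9 lay among the ad libitum dogs. BCKDHB differed by -0.50 (SE 0.29, adjusted p = 0.796, limma) and by -0.52 in its second probe set, with -0.67 to -0.33 when 1 dog was left out. BCKDHA had 11.26, 10.64, 10.95, 10.95 and 11.09 in ad libitum dogs 2, 5, 6, 7 and 8, against 10.91, 11.11, 10.74 and 10.98 in control dogs 1, 3, 4 and 9. The ad libitum dogs enclosed the control range, and the log2 difference was 0.04 (SE 0.14), with 0.02 to 0.04 over its 4 tested probe sets. Whether the subunits differed from each other was not tested.

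DBT, the acyltransferase core of the complex, lay at the filter, with 4.02, 4.02, 4.01, 4.02 and 3.79 in ad libitum dogs 2, 5, 6, 7 and 8, against 4.03, 4.03, 4.02 and 4.18 in control dogs 1, 3, 4 and 9. These nearly equal values near background give no usable level, yet the DBT difference of -0.09 counts among the 14 lower branched-chain genes. With the filter at log2 6, which drops DBT and ALDH6A1, 12 of 16 branched-chain genes were lower and the median stayed at -0.11. BCKDK, the kinase that inactivates the complex, had 11.26, 10.92, 11.20, 11.55 and 10.87 in ad libitum dogs 2, 5, 6, 7 and 8, against 11.12, 11.40, 10.85 and 11.14 in control dogs 1, 3, 4 and 9. The groups covered nearly one range, with a difference of 0.03 (SE 0.17) and a 95% interval of -0.35 to 0.41. PPM1K, the phosphatase that reactivates it, was below the filter on all arrays, at 2.29 to 2.35 in ad libitum and 2.33 to 2.36 in control dogs, and was not tested.

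Beyond the complex the 3 amino acids take separate routes. On the leucine route, IVD, isovaleryl-CoA dehydrogenase, had 12.24, 12.17, 12.01, 12.47 and 11.63 in ad libitum dogs 2, 5, 6, 7 and 8, against 12.33, 12.18, 11.87 and 12.61 in control dogs 1, 3, 4 and 9. Ad libitum dog 8 stood lowest and control dog 9 highest, with a log2 difference of -0.14 (SE 0.20) that was -0.02 without control dog 9. The other IVD probe set differed by -0.35 (SE 0.20). The subunits of methylcrotonyl-CoA carboxylase, MCCC1 and MCCC2, differed by -0.12 (SE 0.21) and -0.25 (SE 0.27). The MCCC2 difference was -0.45 without control dog 3 and -0.08 without control dog 4, and -0.44 (SE 0.27) by its other tested probe set. Ad libitum dogs 6 and 8, which were lowest in BCKDHB, were also lowest in MCCC2, at 9.26 and 9.19, against 9.33 to 10.43 in control dogs. AUH, methylglutaconyl-CoA hydratase, differed by -0.05 (SE 0.15).

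On the isoleucine and valine routes, differences by the brightest probe set were small except where the spread was wide. ACADSB and ACAD8, the acyl-CoA dehydrogenases of isoleucine and valine, differed by -0.02 (SE 0.16) and 0.11 (SE 0.17). The other ACADSB probe sets differed by -0.24 (SE 0.19) and -0.20 (SE 0.13). HIBCH and HIBADH, the hydrolase and dehydrogenase of the valine route, differed by -0.14 (SE 0.30) and -0.10 (SE 0.17), and HSD17B10, the dehydrogenase of the isoleucine route, by -0.12 (SE 0.14). HIBCH, like DLD and SUCLA2, was lowest in ad libitum dog 2, at 8.67, against 9.44 to 10.13 in the other ad libitum dogs and 9.01 to 10.10 in control dogs, and differed by 0.05 without it.

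ALDH6A1, methylmalonate semialdehyde dehydrogenase of the valine route, had the largest difference of all members and also the widest interval. ALDH6A1 had 6.17, 4.24, 4.63, 4.26 and 4.82 in ad libitum dogs 2, 5, 6, 7 and 8, against 4.44, 4.48, 5.33 and 7.79 in control dogs 1, 3, 4 and 9. Most values lay just above the filter, and ad libitum dog 2 and control dog 9 stood above the rest. Its difference was -0.69 (SE 0.70), with a 95% interval of -2.26 to 0.88, and 0.07 without control dog 9.

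Propionyl-CoA, made from isoleucine and valine, is carried to the cycle by propionyl-CoA carboxylase (PCCA and PCCB) and by MCEE, methylmalonyl-CoA epimerase. PCCA differed by -0.43 (SE 0.25, adjusted p = 0.796, limma), with ad libitum dogs 5 and 8 lowest at 5.84 and 5.93 and control dog 9 highest at 7.11. Its other probe sets differed by -0.44 and -0.11, and the difference was -0.29 without control dog 9. PCCB, the partner subunit, differed by 0.06 (SE 0.16), and MCEE by -0.06 (SE 0.14).

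**Figure D4:**
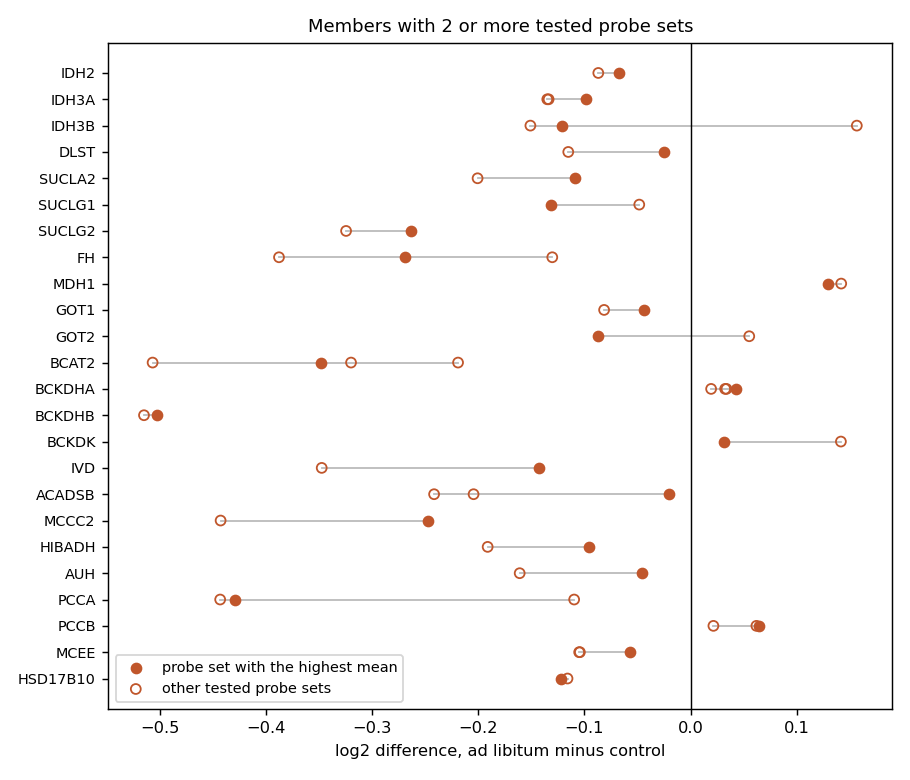
Log2 difference (ad libitum minus control, horizontal axis) of every tested probe set of the 24 members that have 2 or more, filled for the probe set with the highest mean and open for the others. The probe sets share a sign in 22 genes, lower in 18 and higher in 4, and IDH3B and GOT2 have both signs.

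Probe sets of the same gene read the same dogs and are not replicates. Over all members, 69 of 83 probe sets passed the filter. In the 24 genes with 2 or more tested probe sets, 18 were lower in all of them, 4 (MDH1, BCKDHA, BCKDK and PCCB) were higher in all, and IDH3B and GOT2 were mixed.

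The branched-chain median depended most on control dog 9, and moved the other way without control dog 3. Control dogs 4 and 9 held the highest of the 9 values in 12 of 18 branched-chain genes, and an ad libitum dog held the lowest in 13. These shares too were not counted over all genes. Control dog 9 had a median deviation of 0.18 from the control mean. Control dogs 1, 3 and 4 had -0.01, -0.36 and -0.03, and dog 4 lay below that mean in 10 of 18 genes. The ad libitum dogs ran from -0.24 in dog 8 to 0.02 in dog 2. Without control dog 9 the median difference was -0.0093 and 9 of 18 genes were lower, where 47.7% of all genes were. With any other dog left out, the median ran from -0.17, without control dog 3, to -0.06. With the adipocyte marker mean as a covariate it was -0.11, and with the slow fibre marker mean -0.05.

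**Figure D5:**
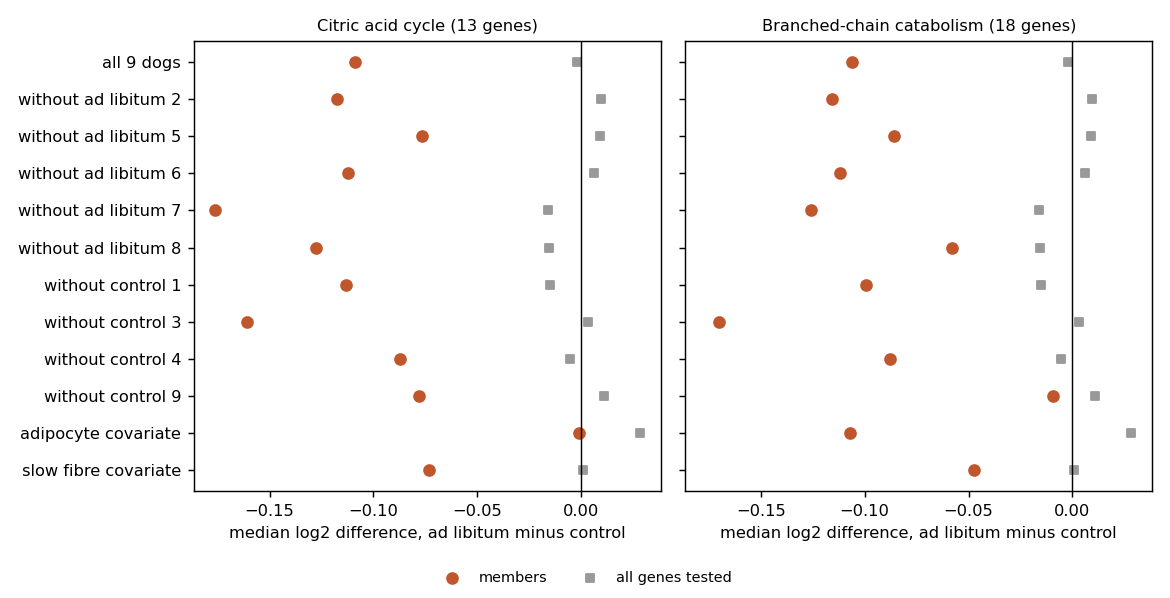
Median log2 difference (ad libitum minus control, horizontal axis) of the cycle genes (left) and the branched-chain genes (right), with all dogs, with each dog left out and with a marker list as a covariate, as circles beside the median over all tested genes as squares. The cycle median comes to -0.0011 with the adipocyte covariate, and the branched-chain median to -0.0093 without control dog 9.

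Around the cycle, a list of 24 other genes of the pathway, its carriers and its branches had 18 tested, of which 11 had lower and 7 had higher means, and 0 passed the test. The 4 with the smallest p all had higher means, and they encode the citrate carrier and cytosolic enzymes that supply acetyl-CoA and NADPH, which adipocytes use for fatty acid synthesis. ACLY, ATP citrate lyase, which splits citrate in the cytosol, had 10.51, 10.46, 9.10, 7.84 and 8.56 in ad libitum dogs 2, 5, 6, 7 and 8, against 8.46, 7.80, 7.42 and 8.42 in control dogs 1, 3, 4 and 9. Ad libitum dogs 2, 5, 6 and 8 lay above all control dogs, and the log2 difference was 1.27 (SE 0.56, adjusted p = 0.796, limma). IDH1, the cytosolic isocitrate dehydrogenase, differed by 1.05 (SE 0.54), SLC25A1, the citrate carrier, by 0.82 (SE 0.44), and ME1, the cytosolic malic enzyme, by 0.58 (SE 0.34). Without control dog 3 the difference was 0.65 for IDH1 and 0.27 for ME1. The adipocyte marker mean was also higher in ad libitum dogs, by 1.02. With that mean as a covariate the differences were 0.18 for ACLY, -0.03 for IDH1, 0.07 for SLC25A1 and 0.29 for ME1. Because the marker mean itself differs between the groups, this fit cannot tell it apart from feeding. Whether the markers follow these genes from dog to dog was not tested.

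Beside branched-chain catabolism, a list of 26 other symbols, which enters methylmalonyl-CoA mutase under both MMUT and its older symbol MUT, had 17 tested, of which 12 had lower and 5 had higher means, and 0 passed the test. OXCT1, the transferase that activates ketone bodies for the cycle, had 8.00, 8.62, 8.54, 8.74 and 8.32 in ad libitum dogs 2, 5, 6, 7 and 8, against 8.77, 8.96, 9.61 and 9.51 in control dogs 1, 3, 4 and 9. Here every ad libitum dog lay below every control dog, the only such gene of the 17, where 0.690% of all tested genes had this pattern, and OXCT1 was chosen for values by dog after they were seen. The log2 difference was -0.77 (SE 0.22, adjusted p = 0.796, limma) and -0.91 to -0.64 over its other 3 probe sets, with -0.92 to -0.64 when 1 dog was left out and -0.45 with the adipocyte covariate. SLC43A2, a transporter of large neutral amino acids, had 9.09, 8.84, 8.24, 8.91 and 9.20 in ad libitum dogs 2, 5, 6, 7 and 8, against 8.15, 8.19, 7.74 and 8.50 in control dogs 1, 3, 4 and 9. Only control dog 9 reached above the lowest ad libitum dog, and the difference was 0.71 (SE 0.22, adjusted p = 0.796, limma), with 0.75 and 0.87 in 2 other probe sets. HADHB and HADHA, the trifunctional protein of fatty acid oxidation, differed by 0.29 (SE 0.16) and 0.33 (SE 0.20). SLC25A44, the mitochondrial carrier of branched-chain amino acids, differed by -0.15 (SE 0.15), and KLF15, a transcription factor known to induce BCAT2 in mouse muscle, by -0.15 (SE 0.21). BCAT1, the cytosolic aminotransferase, was below the filter in both groups, at 2.70 to 2.76 in ad libitum and 2.73 to 2.79 in control dogs.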

How the data were processed

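The deposited values are log2-scale GCRMA values per probe set, made by the authors with GCRMA per the submitters' processing notes, with no version. No source here states the log base; their range, 0.652 to 16.6, fits log2. Because GCRMA evens out the arrays, a shift shared by most transcripts would be removed, and differences near background are uncertain in size. Labels name no batch. Of 43035 probe sets, 111 controls were left out and the 18394 above log2 4 on at least 4 arrays were tested by limma (version 3.58.1, R 4.3.3, moderated two-sided test, no covariate, Benjamini-Hochberg over all, threshold 0.05). Symbols came from the platform annotation of 2016, and 33 of the 35 members with a probe set were found by gene ID in a RefSeq table (assembly UU_Cfam_GSD_1.0), with 0 symbols changed. The fit was tested on simulated data.

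The members and lists were chosen with earlier results of these data known, so no list was tested. All members may be named. Per-dog values are given for a fixed panel of the 2 pathways and for members with an unadjusted p under 0.05. Values of SUCLG2, ACLY, OXCT1 and SLC43A2 were added after they were seen. The single dogs named for SUCLA2, DLD, MDH1, HIBCH, MCCC2 and PCCA were outside that panel and were also added so. Of the other pathway genes, the 4 per list with the lowest p were named, with BCAT1, KLF15 and SLC25A44 whatever their p. The alternatives were other filters, a floor, cyclic loess, median centring, an intensity trend, robust estimation, array weights, marker covariates, other probe sets, gene means, exact permutation and leaving out each dog.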

Additional observations from a re-analysis of the deposited data

Results flagged for a closer look

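In 6 of 108 groups of values checked (each pathway gene given with values, in each feeding group), 1 dog stood apart from the rest of its group by Dixon's criterion, where chance alone gives about 1 in 20. DBT had 3.79 in ad libitum dog 8, against 4.01 to 4.02 in the other ad libitum dogs, and 4.18 in control dog 9, against 4.02 to 4.03 in the other control dogs. Both gaps lie at the filter on low values. SDHA had 12.90 in ad libitum dog 8, against 13.14 to 13.23 in the other ad libitum dogs, and SDHC had 13.88 in ad libitum dog 6, against 14.14 to 14.18 in the other ad libitum dogs. ME1 had 7.77 in control dog 3, against 8.91 to 9.12 in the other control dogs, and without that dog its log2 difference was 0.27. SLC25A44 had 5.96 in control dog 1, against 6.42 to 6.51 in the other control dogs, and without that dog its difference was -0.28.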

How the results depend on the processing

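The lack of calls held under all alternatives for the members: no member passed an adjusted p of 0.05 with limma. Over all probe sets the number that passed was 0, except for 1 with values below log2 4 raised to 4, and 0 to 1 with a dog left out (1 without ad libitum dog 8). At an unadjusted p under 0.05 there were 1088 probe sets, 1865 with array weights, 469 with the adipocyte covariate, 454 with gene means (fewer features tested), and 695 (without ad libitum dog 5) to 2151 (without ad libitum dog 7) with a dog left out. The cycle genes lower in ad libitum muscle numbered 12, and 7 with the adipocyte covariate. The branched-chain genes lower numbered 14 of 18, 12 of 16 with the filter at log2 6, and 9 (without control dog 9) to 15 with a dog left out. Median centring made 58.3% of all genes lower, against 50.4%. The causes of these shifts were not tested. Of 440 member differences under alternatives other than leaving out a dog, 18 turned sign, none of them past the threshold in either fit.

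With the adipocyte covariate, the differences that turned sign were IDH3A 0.087, IDH3G 0.0048, DLST 0.032, DLD 0.13, SUCLA2 0.13, PC -0.29, GOT1 0.00011, GOT2 0.060, BCKDHA -0.029, HIBCH 0.079, AUH 0.11, PCCB -0.036, MCEE 0.028, IDH1 -0.031 and KLF15 0.13. Median centring turned BCKDK (-0.011), array weights turned PCCB (-0.073), and the slow fibre covariate turned MCEE (0.016). Other probe sets turned IDH3B (0.16) and GOT2 (0.055). Leaving out each dog turned the sign of genes whose differences ran as follows. In the cycle group these were CS from -0.17 to 0.0048, IDH2 from -0.17 to 0.0068, DLST from -0.088 to 0.031, DLD from -0.27 to 0.094, SUCLA2 from -0.30 to 0.065 and GOT2 from -0.19 to 0.096. In the branched-chain group they were BCKDHA from -0.028 to 0.13, BCKDK from -0.065 to 0.12, ACAD8 from -0.0084 to 0.21, ACADSB from -0.18 to 0.092, MCCC1 from -0.26 to 0.038, HIBADH from -0.26 to 0.0084, HIBCH from -0.34 to 0.054, AUH from -0.14 to 0.029, PCCB from -0.085 to 0.18, ALDH6A1 from -1.04 to 0.072 and MCEE from -0.14 to 0.0081, with KLF15 from -0.29 to 0.012. No paired analysis was possible because the groups share no animal number.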

Other observations

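Some enzymes and carriers next to the members, picked from the other pathway genes after their values were seen, are given as values. The subunits of succinate dehydrogenase, which links the cycle to the respiratory chain, had log2 differences of -0.05 for SDHA (SE 0.11), -0.03 for SDHB (SE 0.11), -0.03 for SDHC (SE 0.14) and -0.05 for SDHD (SE 0.17). MPC1 and MPC2, the mitochondrial pyruvate carrier, differed by 0.05 (SE 0.12) and -0.01 (SE 0.15), and GLUL, glutamine synthetase, by -0.03 (SE 0.13). GPT, an alanine aminotransferase, differed by -0.44 (SE 0.32), with 9.17 to 10.99 in ad libitum dogs against 10.25 to 10.48 in control dogs. None of these passed the test.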
